A study of Mus musculus with 6 samples.

Results

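The genes described here are 10 genes of the response to glucocorticoids, taken by name from the 15302 genes listed for the kidneys of 45-day-old mice. They comprise 8 targets that corticosteroids are known to induce (Tsc22d3, Per1, Ddit4, Sgk1, Fkbp5, Zbtb16, Klf9 and Dusp1), the receptor gene Nr3c1, and Hsd11b1, whose enzyme makes the active hormone inside cells. All 10 were listed, and all 10 were among the 13230 genes tested, whose mean over the libraries was 0.5 FPKM (fragments for each kilobase of a transcript, relative to library depth) or more. The question was whether they move together. They were selected on their known response to the hormone and with their FPKM in these Tsc1-KO and WT kidneys already seen, so that difference is given for them as a description, without a p-value for each gene.

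Total kidney RNA, selected for poly A, was sequenced from 3 Tsc1-KO mice (Tsc1f/f/Aqp2 Cre, replicates 4, 5 and 6) and 3 WT mice (C57BL/6, replicates 1, 2 and 3), all aged 45 days. The paper describes the knockout as specific to the principal cells of the collecting duct, where the Aqp2 promoter drives Cre. Which kidney cells had lost Tsc1 was not measured here. The labels do not say that the WT mice were littermates or carried Cre or the floxed alleles, so that strain, Cre and loss of Tsc1 cannot be told apart as sources of a difference. Nor do they give the hour at which kidneys were taken, the sex of the mice or their handling. Corticosterone was not measured here. Where 3 values are given for a genotype, they follow the order of its replicates, 4, 5 and 6 for Tsc1-KO and 1, 2 and 3 for WT.

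The libraries held 19568856 to 24647430 reads in listed genes. Tsc1 itself was at 7.69, 7.61 and 8.23 FPKM in the 3 Tsc1-KO mice, against 8.46, 8.91 and 7.49 FPKM in the 3 WT mice, with overlapping groups. WT replicate 3 stood apart. Across genes, which are not independent replicates, its log2 levels had a Pearson's r of 0.977 and 0.976 with WT replicates 1 and 2, against 0.992 between those 2. Its r with Tsc1-KO replicates 4, 5 and 6 was 0.981, 0.980 and 0.974, so that it was no nearer to its own genotype than to replicates 4 and 5 of the other. Main results are therefore also given without it.

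As background, corticosterone, the main glucocorticoid of the mouse, enters cells and binds the glucocorticoid receptor, which hsp90 and its co-chaperones hold ready in the cytoplasm. The bound receptor moves to the nucleus and binds DNA as a dimer at a palindrome of 2 arms with a gap of 3 bases, from where it raises the transcription of its targets. In the kidney, Hsd11b1 regenerates the active hormone, while Hsd11b2 inactivates it in the principal cells, where it keeps the mineralocorticoid receptor free for aldosterone. The 2 receptors bind the same palindrome and share targets such as Sgk1.

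That palindrome, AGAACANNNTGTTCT, was looked for in the RefSeq promoter windows of build GRCm38.p6, each running from 250 bases before to 50 bases after a start of transcription. A window was at hand for 8 of the 10 genes, all but Zbtb16 and Nr3c1, with 6 start windows for Sgk1, 3 for Tsc22d3 and 2 for Per1. The exact palindrome stood in 1 of these 8 genes, Sgk1, and in 3 of 27025 genes in all, which is 0.0111%. With 1 mismatch allowed it was found in the same number of members, 1 of 8, and in 0.192% of all genes. A single arm, TGTTCT on either strand, stood in 2 of 8 members, Sgk1 and Tsc22d3, which is 25%, against 21.3% of all genes. A gene counts if any of its windows holds a match, and these 2 had the most windows of the 8. The palindrome holds this arm on both strands, so Sgk1 counts under each. The stretches shown are examples of the palindrome and of the single arm in the members, and not every match. The palindrome or the arm is in capitals, and each line gives the bases before a start of transcription, read 5′ to 3′ on the strand of the gene.
Sgk1, chr10:21993661-21993755, plus strand, palindrome: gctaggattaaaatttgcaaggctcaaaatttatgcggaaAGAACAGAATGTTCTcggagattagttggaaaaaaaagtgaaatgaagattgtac
Sgk1, chr10:21881949-21882034, plus strand, single arm: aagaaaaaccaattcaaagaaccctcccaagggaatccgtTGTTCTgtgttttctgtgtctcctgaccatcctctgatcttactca
Tsc22d3, chrX:140600662-140600747, minus strand, single arm: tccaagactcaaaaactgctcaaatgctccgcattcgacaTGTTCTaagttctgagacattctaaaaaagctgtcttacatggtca
The palindrome of Sgk1 begins 189 bases before its start of transcription, the arm in its farthest upstream window 195 bases before, and the arm of Tsc22d3 185 bases before. A further single arm of Sgk1, not shown, lies on the other strand 13 bases before another of its starts. The window with the palindrome holds 3 arms in all, counting those of the palindrome. A match is a run of letters and not a shown binding site. The absence of a match in the windows of Ddit4, Dusp1, Fkbp5, Klf9, Per1 and Hsd11b1 says only that these letters are not in these windows.

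All 8 induced targets had a higher mean in Tsc1-KO kidneys than in WT kidneys, while Nr3c1 and Hsd11b1 had a lower one. Over the 8 targets the median log2 fold change was 1.01, with a range of 0.33 for Klf9 to 2.91 for Zbtb16, against a median of 0.04 over all genes tested, of which 59.8% had a positive value. In 6 of the 8 all Tsc1-KO values exceeded all WT values, which held for 17.3% of all genes tested, and in 0 of the 10 were all Tsc1-KO values below all WT values, which held for 8.07%. At an adjusted p under 0.05 in limma, 3 of the 10 were called higher, where the share over all genes was 1.87%, and 0 were called lower, where the share was 0.234%. Without WT replicate 3, 8 of the 10 were called higher, where the share was 5.36%. In that fit 1 was called lower, where the share was 3.02%. All 8 targets then had every Tsc1-KO value above both WT values left, which held for 27.9% of all genes tested. WT replicate 3 was the highest WT library for 6 of the 8 targets, so leaving it out widens their difference. With another single library left out, 0 to 3 of the 10 were called higher, the 0 without Tsc1-KO replicate 6, and 0 were called lower. As these genes were chosen with this contrast known, nothing is read from the counts. In whole-kidney RNA, more cells of a type and more RNA per cell cannot be told apart.

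**Figure D1:**
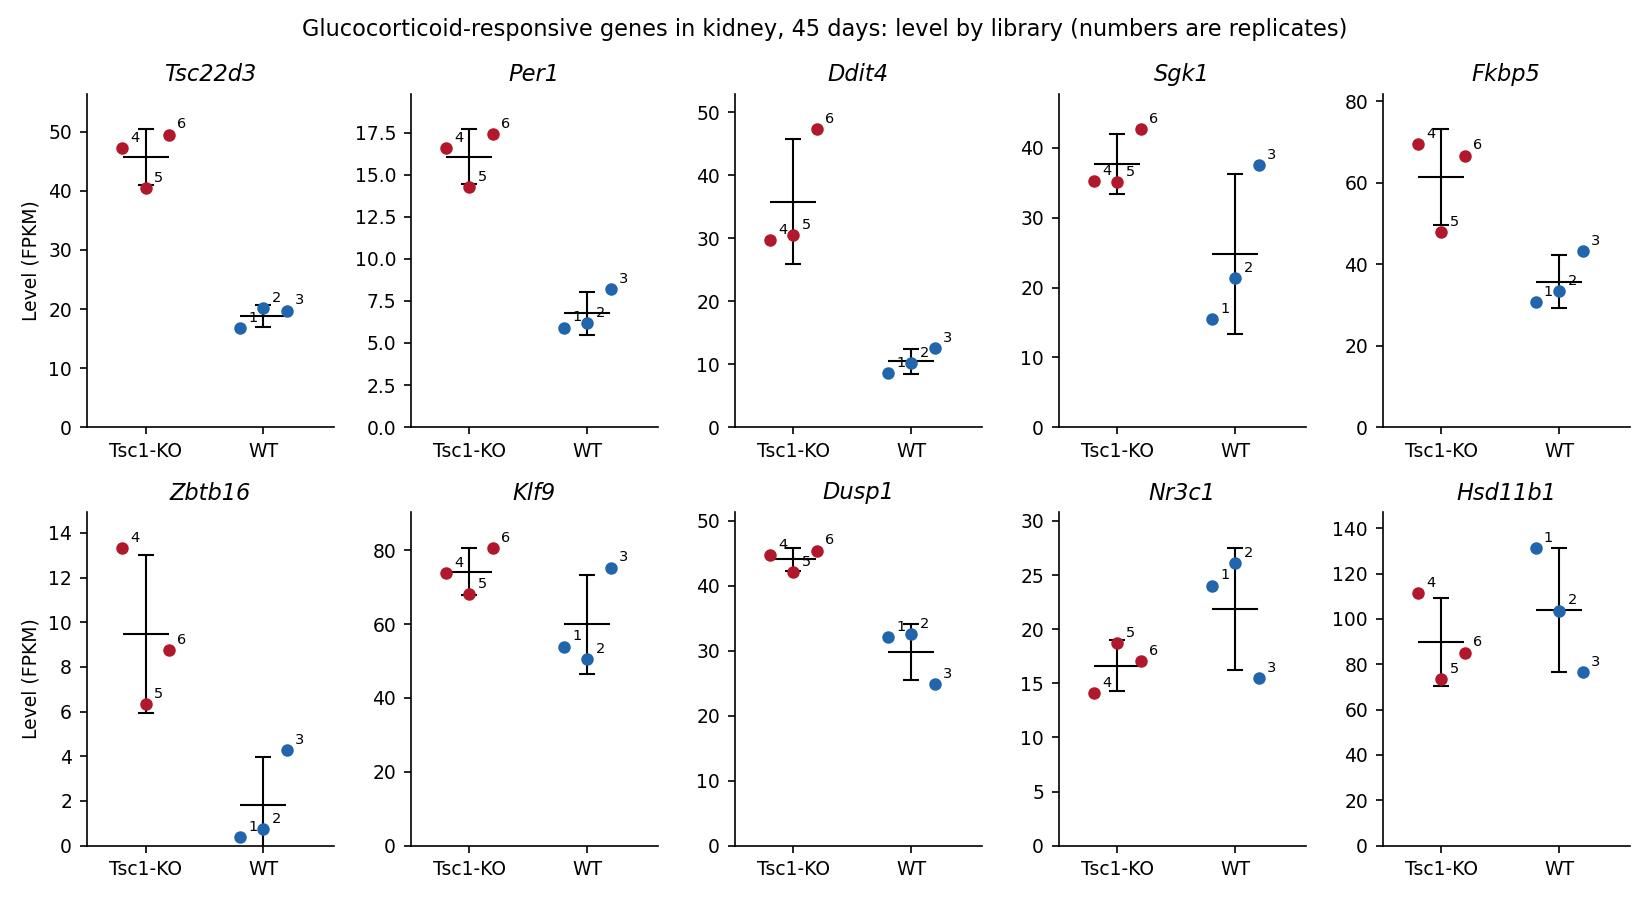
Level of each of the 10 genes in FPKM (vertical axis, from 0) in each library, with Tsc1-KO replicates 4 to 6 in red and WT replicates 1 to 3 in blue. Bars show the mean and SD of 3 libraries, and the lower SD bar of Zbtb16 in WT is drawn only to 0. The groups stand apart for Tsc22d3, Per1, Ddit4, Fkbp5, Zbtb16 and Dusp1 and overlap for Sgk1, Klf9, Nr3c1 and Hsd11b1.

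Tsc22d3, which encodes the leucine zipper protein GILZ that carries part of the anti-inflammatory action of glucocorticoids, was at 47.2, 40.5 and 49.5 FPKM in the 3 Tsc1-KO mice, against 16.8, 20.1 and 19.7 FPKM in the 3 WT mice. The groups lay far apart, and the WT libraries were close to each other, WT replicate 3 included. The mean was 45.8 ± 4.68 FPKM in Tsc1-KO mice and 18.9 ± 1.85 FPKM in WT mice (SD, n = 3 each), a log2 fold change of 1.27 ± 0.103 (standard error). It was the target with the smallest spread within groups, at 0.15 on the log2 scale. A promoter stretch with a single arm of the palindrome is printed above for this gene and for Sgk1.

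Per1, a repressor of the circadian clock and a direct target of the glucocorticoid receptor, was at 16.6, 14.3 and 17.4 FPKM in the 3 Tsc1-KO mice, against 5.91, 6.16 and 8.21 FPKM in the 3 WT mice. All Tsc1-KO values were above all WT values, and WT replicate 3 was the highest of the WT libraries. The log2 fold change was 1.25 ± 0.142 (standard error), from a mean of 16.1 ± 1.62 FPKM in Tsc1-KO mice and 6.76 ± 1.26 FPKM in WT mice (SD, n = 3 each).

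Ddit4, also called REDD1, encodes an inhibitor of mTORC1 that is known to need the TSC1-TSC2 complex for its action. Its level was 29.7, 30.4 and 47.3 FPKM in the 3 Tsc1-KO mice, against 8.58, 10.2 and 12.5 FPKM in the 3 WT mice. Tsc1-KO replicate 6 was well above its group, yet even the lowest Tsc1-KO library was above the highest WT library. The mean was 35.8 ± 9.95 FPKM in Tsc1-KO mice and 10.4 ± 1.98 FPKM in WT mice (SD, n = 3 each), with a log2 fold change of 1.75 ± 0.210 (standard error).

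Zbtb16, the zinc finger transcription factor PLZF, had the largest ratio and the largest spread of the 10. It was at 13.3, 6.35 and 8.76 FPKM in the 3 Tsc1-KO mice, against 0.385, 0.749 and 4.29 FPKM in the 3 WT mice. WT replicate 3 was closer to Tsc1-KO replicate 5 than to the other WT libraries, although the groups did not overlap. Its log2 fold change was 2.91 ± 0.766 (standard error) with all libraries and 3.84 ± 0.354 without WT replicate 3. It also had the fewest reads, with 44 in the lowest library and 1459 in the highest, and its log2 fold change came to 2.11 with a pseudocount of 1 FPKM in place of 0.1 FPKM.

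Fkbp5 encodes an hsp90 co-chaperone that lowers the affinity of the receptor for its hormone, and its induction closes a feedback loop. Its level was 69.5, 47.8 and 66.6 FPKM in the 3 Tsc1-KO mice, against 30.6, 33.3 and 43.1 FPKM in the 3 WT mice. Tsc1-KO replicate 5 and WT replicate 3 came close to each other, but the groups did not overlap. The mean was 61.3 ± 11.8 FPKM in Tsc1-KO mice and 35.7 ± 6.58 FPKM in WT mice (SD, n = 3 each), with a log2 fold change of 0.77 ± 0.177 (standard error).

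Dusp1, a phosphatase that switches off the MAP kinases p38 and JNK, was at 44.8, 42.1 and 45.4 FPKM in the 3 Tsc1-KO mice, against 32.1, 32.6 and 24.9 FPKM in the 3 WT mice. The groups did not overlap, and here WT replicate 3 was the lowest of the WT libraries, unlike the other targets. Its log2 fold change was 0.57 ± 0.109 (standard error), and 0.45 ± 0.0565 without WT replicate 3.

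Sgk1 encodes a kinase that keeps the epithelial sodium channel at the membrane of principal cells, and it is induced by aldosterone as well as by glucocorticoids. It was at 35.2, 35.1 and 42.7 FPKM in the 3 Tsc1-KO mice, against 15.5, 21.4 and 37.5 FPKM in the 3 WT mice. The groups overlapped because WT replicate 3 was above 2 of the Tsc1-KO libraries. The log2 fold change was 0.69 ± 0.295 (standard error) with all libraries and 1.04 ± 0.152 without WT replicate 3, and it was 0.40 without WT replicate 1, so that either library moves it by over 1.5 times. Of the 8 genes with a promoter window, the gene with the exact palindrome was thus one of those whose groups overlapped.

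Klf9, a Krüppel-like transcription factor that links glucocorticoids to the clock and to the cell cycle, had the highest level per length of the targets. It was at 73.8, 68.1 and 80.7 FPKM in the 3 Tsc1-KO mice, against 53.9, 50.6 and 75.3 FPKM in the 3 WT mice. As for Sgk1, WT replicate 3 lay within the range of the Tsc1-KO libraries. The log2 fold change of 0.33 ± 0.152 (standard error) was the smallest of the targets, and it was 0.50 ± 0.0811 without WT replicate 3, again over 1.5 times as large, and 0.22 without WT replicate 2.

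The receptor and the activating enzyme ran the other way in their means. Nr3c1, the glucocorticoid receptor, was at 14.1, 18.7 and 17.0 FPKM in the 3 Tsc1-KO mice, against 24.0, 26.1 and 15.5 FPKM in the 3 WT mice. The groups overlapped through WT replicate 3 alone, since all Tsc1-KO libraries were below WT replicates 1 and 2. Its log2 fold change came to -0.37 ± 0.206 (standard error), and -0.60 ± 0.122 without WT replicate 3, and it was -0.22 without WT replicate 2.

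Hsd11b1 was at 111, 73.3 and 85.2 FPKM in the 3 Tsc1-KO mice, against 131, 104 and 76.7 FPKM in the 3 WT mice. These ranges overlapped widely, and the log2 fold change of -0.20 ± 0.222 (standard error) was smaller than its error. Leaving out single libraries moved it between -0.40, without WT replicate 3, and -0.01, without WT replicate 1. The opposing enzyme Hsd11b2 was at 93.1, 97.2 and 105 FPKM in the 3 Tsc1-KO mice, against 76.6, 80.8 and 92.1 FPKM in the 3 WT mice, a log2 fold change of 0.24 with adjusted p = 0.185 from limma. The groups did not overlap, and without WT replicate 3 Hsd11b2 was called higher, with a log2 fold change of 0.32 and adjusted p = 0.0396. Nr3c2, the mineralocorticoid receptor, was at 3.15 ± 0.322 FPKM in Tsc1-KO mice and 3.59 ± 0.481 FPKM in WT mice (SD, n = 3 each), with adjusted p = 0.519 from limma.

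**Figure D2:**
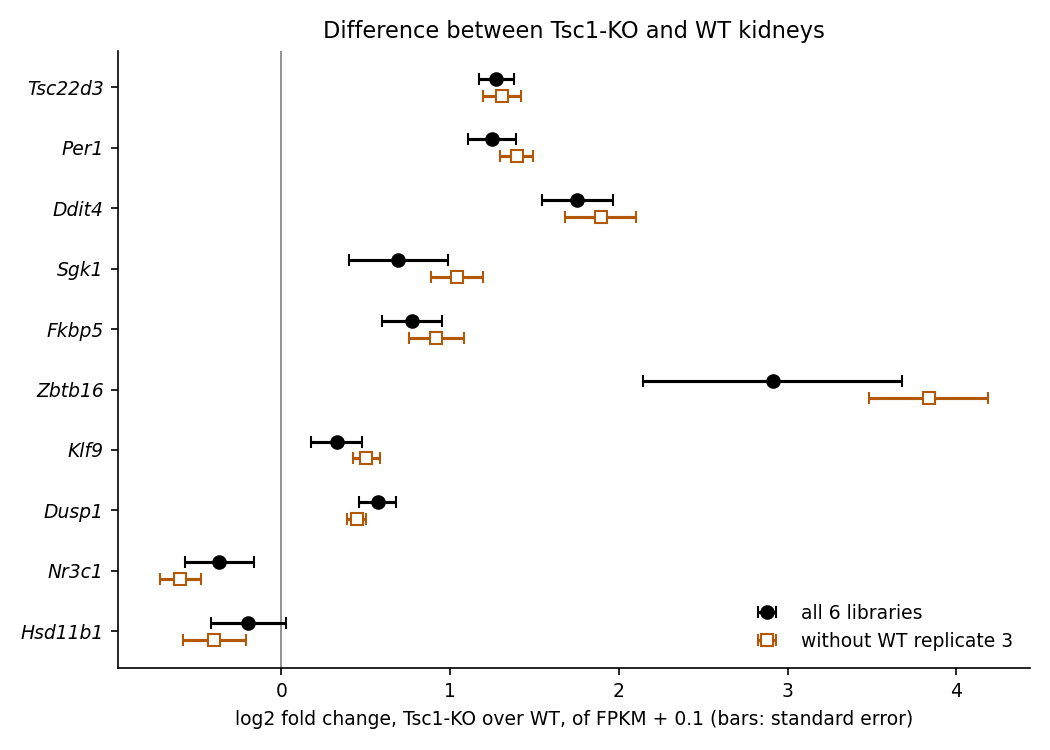
Log2 fold change of each gene, Tsc1-KO over WT, of FPKM + 0.1 (horizontal axis), with its standard error. Filled circles use all 6 libraries and open squares leave out WT replicate 3; the 8 targets lie above 0 and Nr3c1 and Hsd11b1 below 0 in both.

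Per length of transcript, the order of the 10 levels differed little between the genotypes at its top and its foot. Hsd11b1, Klf9 and Fkbp5 were the highest 3 in both groups, at means of 90.0, 74.2 and 61.3 FPKM in Tsc1-KO mice and 104, 59.9 and 35.7 FPKM in WT mice, and Zbtb16 was the lowest in both. Tsc22d3 was the 4th in Tsc1-KO mice and the 7th in WT mice, where Nr3c1 had a higher mean. In Tsc1-KO mice 7 of the 9 neighbours in this order overlapped in their ranges, and in WT mice 4 of 9 did. In Tsc1-KO mice the exceptions were Ddit4 above Nr3c1 and Per1 above Zbtb16.

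Within each genotype the targets also varied together from mouse to mouse. In Tsc1-KO mice 7 of the 8 targets were lowest in replicate 5, and 6 of 8 were highest in replicate 6. In WT mice 6 of 8 were lowest in replicate 1 and 6 of 8 were highest in replicate 3, the exceptions at the top being Tsc22d3 and Dusp1. Over all genes tested, 31.4% were lowest among Tsc1-KO libraries in replicate 5, 31.5% lowest among WT libraries in replicate 1, and 34.7% highest among WT libraries in replicate 3. No such share is given for Tsc1-KO replicate 6, the library with the most reads, so its count has no background beside it. Other lists, described further on, shared parts of this course. Of 7 glucocorticoid-repressed genes, 6 were lowest among Tsc1-KO libraries in replicate 5, with a median log2 difference from the other Tsc1-KO libraries of -0.56, against -0.25 for the targets. Of 29 other glucocorticoid-induced genes, 17 were lowest among Tsc1-KO libraries in replicate 5, at a median log2 difference of -0.24. Among WT libraries, 13 of these 29 were lowest in replicate 1. Of 12 immediate early genes, 8 were lowest among WT libraries in replicate 1. Among Tsc1-KO libraries, 6 of these 12 were lowest in replicate 5, at a median of -0.26. By contrast, 3 of 16 clock genes and 4 of 18 receptor partners and steroid-handling genes were lowest in Tsc1-KO replicate 5. Of 12 hypoxia targets and of 12 aldosterone-responsive genes, 8 each were highest among WT libraries in replicate 3.

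After the mean of each genotype was taken out, the median Pearson's r over the 28 pairs of targets was 0.70 (Spearman's rho 0.60), against 0.03 over all pairs of genes tested. These are descriptions over 6 libraries less 2 group means, which leave few degrees of freedom, and the points of every pair share the same libraries and their depth. The median spread within groups was 0.26 on the log2 scale for the targets, against 0.13 over all genes tested. The pairs of all genes are thus not matched to the targets in spread. The 21 pairs without Dusp1 were all positive, with r of 0.43 for Tsc22d3 with Klf9 to 0.95 for Per1 with Klf9. The 7 pairs with Dusp1 were all negative, with r of -0.82 for Zbtb16 to -0.05 for Tsc22d3. Without WT replicate 3 all 28 pairs were positive, at a median r of 0.67, so the opposite course of Dusp1 rests on that library.

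**Figure D3:**
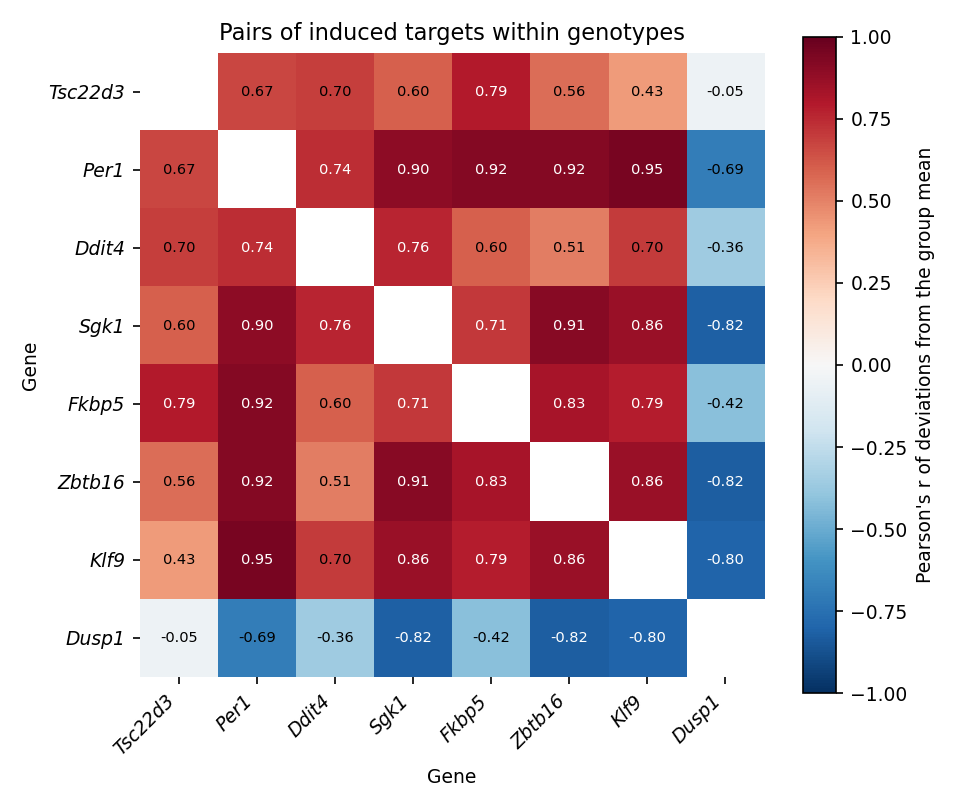
Pearson's r between the log2 levels of each pair of the 8 targets over 6 libraries, after the mean of each genotype was taken out (colour scale from -1 to 1). The row and column of Dusp1 are negative and the other 21 pairs are positive.

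WT replicate 3 differed from the other WT mice in more than these targets. Relative to the mean of WT replicates 1 and 2, its median log2 difference was 0.43 over the 8 targets, from -0.37 for Dusp1 to 2.77 for Zbtb16, and it was -0.04 over all genes tested. Over 29 other glucocorticoid-induced genes it was 0.11, with 13 above both other WT libraries and 10 below both. The 16 circadian clock genes were displaced by a median of -0.88, with 5 above and 11 below. Over all genes tested, 34.7% were above both other WT libraries and 45.5% below both. Markers of other cell types also differed in that library, where all 5 endothelial markers were lowest, and all 4 tested adipocyte markers highest, among the WT libraries.

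Per1 is itself part of the clock, and its paralogs did not follow it in that library. Per2 was at 14.1, 16.4 and 9.39 FPKM in the 3 Tsc1-KO mice, against 10.5, 10.4 and 5.34 FPKM in the 3 WT mice, and Per3 at 6.77, 8.29 and 7.13 FPKM in the 3 Tsc1-KO mice, against 8.90, 9.49 and 3.38 FPKM in the 3 WT mice. Both were thus lowest in WT replicate 3, the library in which Per1 was highest among the WT mice. The activator Arntl, at 2.89, 2.85 and 2.79 FPKM in the 3 Tsc1-KO mice, had 1.18, 2.16 and 4.68 FPKM in the 3 WT mice. The output gene Dbp, at 31.8, 43.1 and 32.6 FPKM in the same Tsc1-KO libraries, had 45.4, 40.7 and 8.77 FPKM in the 3 WT mice. The part of the clock in the levels of the targets was not tested.

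Of the 16 clock genes, 1 was called higher in Tsc1-KO mice and 0 lower, with a median log2 fold change of 0.24. The 1 was Nr1d1, the repressor REV-ERB alpha, with 34.9, 31.8 and 36.7 FPKM in the 3 Tsc1-KO mice, against 24.5, 21.5 and 25.7 FPKM in the 3 WT mice, so that WT replicate 3 was close to WT replicate 1. Its adjusted p was 0.0362 from limma, and it passed in 5 of 13 alternatives of the processing, with adjusted p between 0.0188 and 0.157. Without WT replicate 3, 2 of the 16 were called higher and 2 lower.

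**Figure D4:**
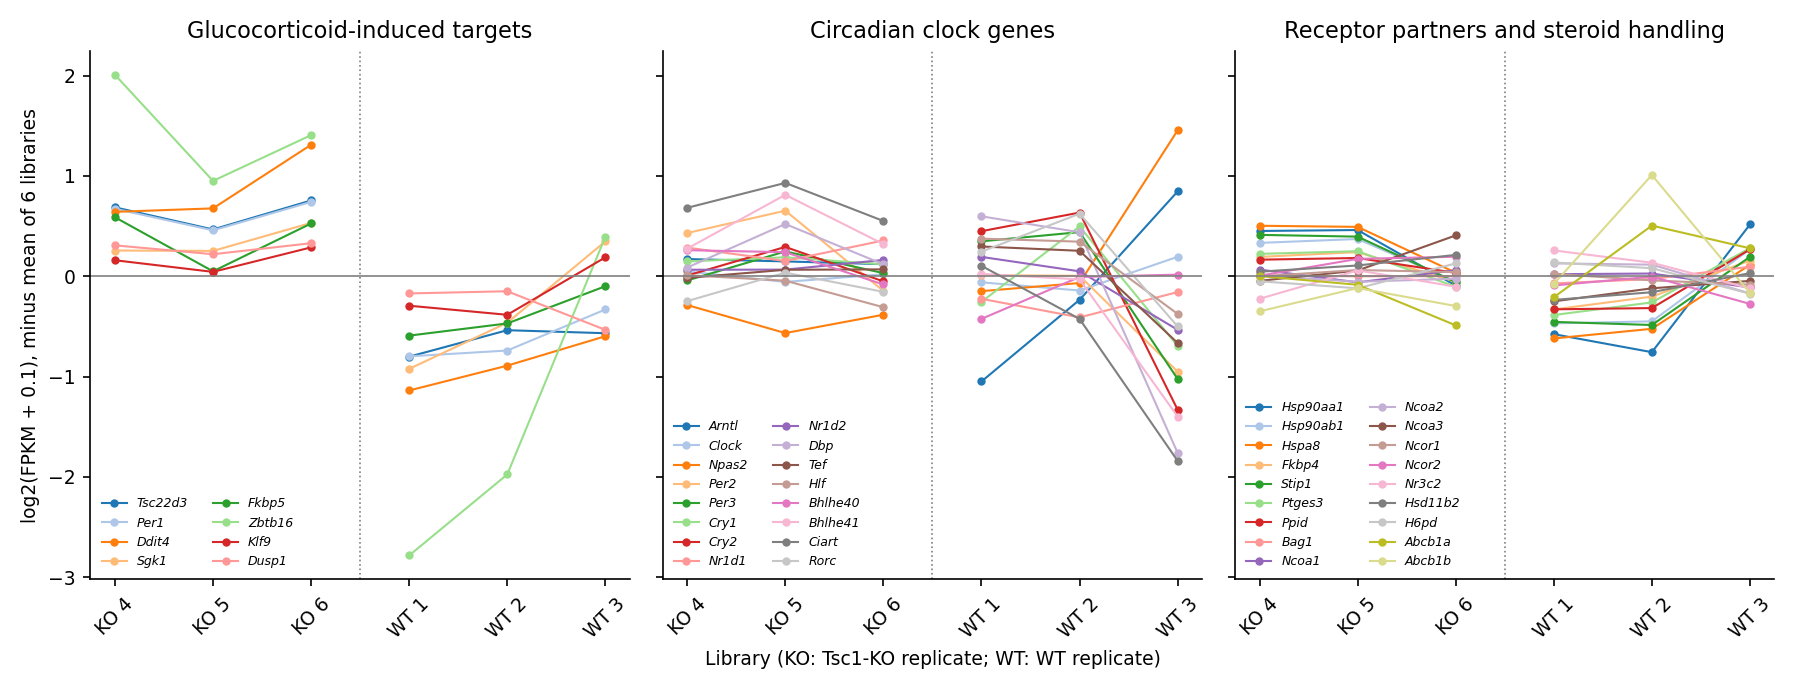
Log2(FPKM + 0.1) less the mean of the 6 libraries (vertical axis) for the 8 targets, 16 clock genes and 18 receptor partners and steroid-handling genes, by library, with Tsc1-KO libraries left of WT libraries. Each line joins the libraries of 1 gene within a genotype and implies no order; 6 of the 8 targets have all Tsc1-KO libraries above all WT libraries, and 11 of the 16 clock genes are lowest among WT libraries in replicate 3.

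Of 30 other genes known to be induced by glucocorticoids, 29 were listed and tested, and 25 of the 29 had a positive log2 fold change, with a median of 0.44. In 14 of them all Tsc1-KO values exceeded all WT values and in 0 all were below, against 17.3% and 8.07% of all genes. This list was written with some earlier results of these libraries known, so its counts are a description. Only 1 was called higher at an adjusted p under 0.05 in limma, and 0 were called lower, while 16 had p under 0.05 before adjustment and limma-voom called 0. The 1 was Usp2, a deubiquitinase of the clock and of the sodium channel, at 48.8, 42.3 and 44.2 FPKM in the 3 Tsc1-KO mice, against 34.7, 32.6 and 30.1 FPKM in the 3 WT mice. It rose by a log2 fold change of 0.47 ± 0.0796 (standard error; limma, adjusted p = 0.0373), and it passed in 5 of 13 alternatives, with adjusted p between 0.0301 and 0.153.

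The largest differences in this list did not pass the test with all libraries. Cdkn1a, the inhibitor p21 of the cell cycle, was at 12.5, 12.1 and 16.9 FPKM in the 3 Tsc1-KO mice, against 3.01, 2.69 and 7.59 FPKM in the 3 WT mice, with adjusted p = 0.0729 from limma. Again WT replicate 3 was the WT library nearest to the Tsc1-KO libraries. Angptl4, an inhibitor of lipoprotein lipase, the transcription factor Cebpd and the pyruvate dehydrogenase kinase Pdk4 had log2 fold changes of 1.41, 1.32 and 1.29, and each had its highest WT level in replicate 3. Pck1, the enzyme that commits carbon to gluconeogenesis, had a smaller log2 fold change of 0.60. It was at 1474 ± 27.2 FPKM in Tsc1-KO mice and 981 ± 152 FPKM in WT mice (SD, n = 3 each), with adjusted p = 0.0596 from limma. The names given beside Usp2 were chosen after their values were seen. Without WT replicate 3, 9 of the 29 were called higher and 0 lower, Cdkn1a, Angptl4, Cebpd, Pdk4 and Pck1 among them. Txnip, whose groups overlapped, had a log2 fold change of 0.95 with all libraries. It was not called without WT replicate 3 either (adjusted p = 0.239 from limma).

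Other genes of the list did not differ in this way between the genotypes. Bcl6, a transcriptional repressor, was at 26.2, 4.67 and 5.50 FPKM in the 3 Tsc1-KO mice, against 13.1, 8.42 and 6.81 FPKM in the 3 WT mice. The metallothionein gene Mt2 was at 33.4, 29.0 and 85.6 FPKM in the 3 Tsc1-KO mice, against 33.4, 35.2 and 63.6 FPKM in the 3 WT mice. G6pc, the glucose 6-phosphatase of gluconeogenesis, was at 198, 155 and 316 FPKM in the 3 Tsc1-KO mice, against 264, 372 and 147 FPKM in the 3 WT mice. In all 3 the groups overlapped and the spread between mice of 1 genotype exceeded the difference of the means. Within each genotype, however, Mt2 was lowest and highest in the same replicates as most of the targets. Bcl6 and G6pc were instead lowest among WT libraries in replicate 3.

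**Figure D5:**
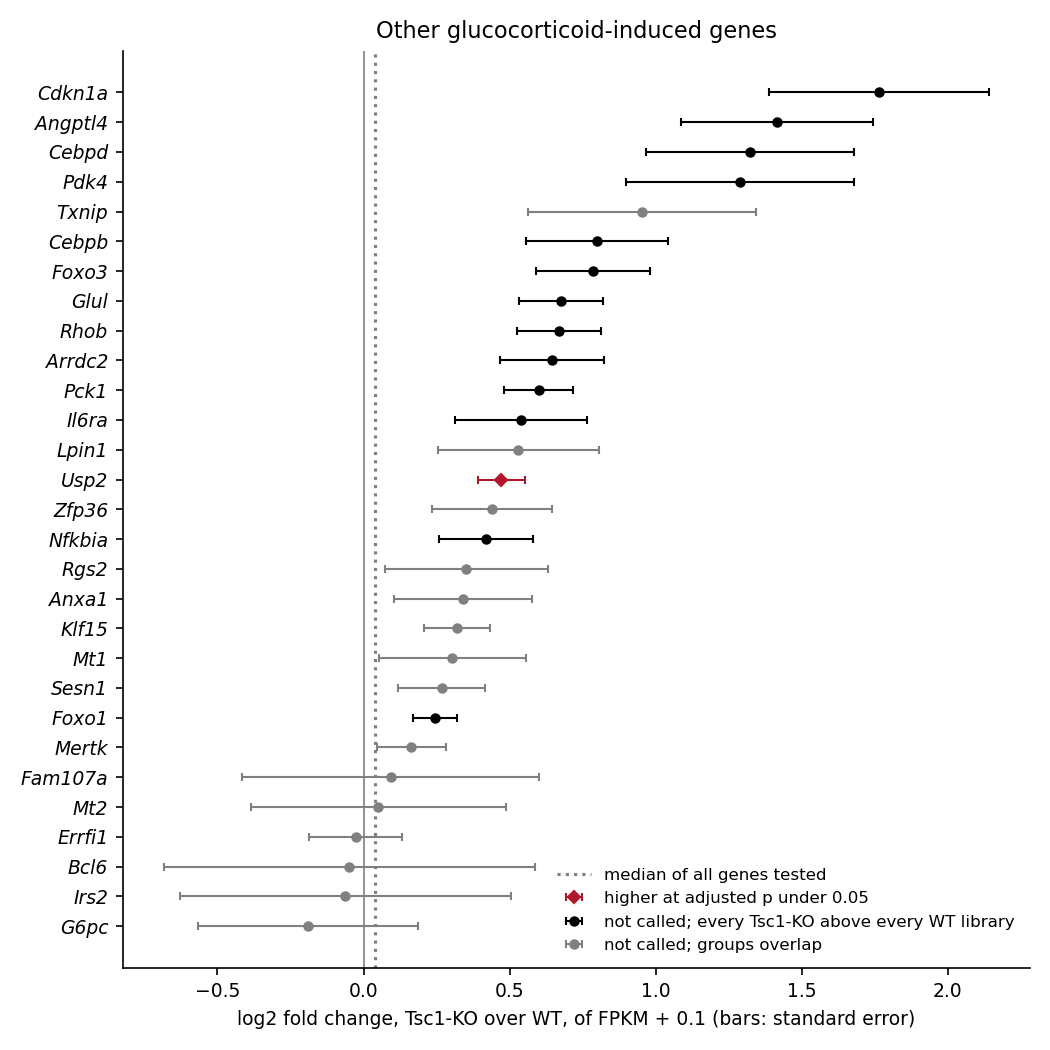
Log2 fold change of the 29 other glucocorticoid-induced genes, Tsc1-KO over WT, of FPKM + 0.1 (horizontal axis), with its standard error. The dotted line marks the median of all genes tested, 0.04; 25 of 29 genes lie above 0, and Usp2 is the 1 gene called.

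Among genes that glucocorticoids are known to repress, 14 inflammatory genes were looked at. Of these 12 were listed and 7 were tested, with 5 positive log2 fold changes and a median of 0.18. By limma 0 were called, with 0 before adjustment (p under 0.05) and 0 by limma-voom. The gene with the smallest p was the cytokine gene Il1b, at 0.590, 0.417 and 0.692 FPKM in the 3 Tsc1-KO mice, against 0.763, 0.661 and 1.03 FPKM in the 3 WT mice (adjusted p = 0.357 from limma).

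The partners of the receptor and the genes of steroid handling, 18 in all, had 0 calls in limma, with 4 before adjustment (p under 0.05) and 0 by limma-voom. The heat shock chaperone Hspa8 had the smallest p, at 2361, 2343 and 1707 FPKM in the 3 Tsc1-KO mice, against 1084, 1158 and 1803 FPKM in the 3 WT mice (log2 fold change 0.69, adjusted p = 0.164 from limma). Hsp90aa1, which holds the receptor ready for its hormone, was likewise higher in WT replicate 3 than in Tsc1-KO replicate 6, at 349, 351 and 239 FPKM in the 3 Tsc1-KO mice, against 171, 151 and 365 FPKM in the 3 WT mice. Both were high in WT replicate 3, as were 6 of the 8 targets, but both were low in Tsc1-KO replicate 6, where 6 of the 8 targets were highest. Without WT replicate 3, 6 of the 18 were called higher and 0 lower, Hspa8 among them (adjusted p = 0.0251, the range over its 13 alternatives being 0.0251 to 0.416).

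Sodium transport genes that respond to aldosterone, which acts on targets shared with glucocorticoids, had 3 of 12 called higher and 0 lower in limma, and 2 higher in limma-voom. Scnn1b and Scnn1g, subunits of the epithelial sodium channel that Sgk1 acts on, had log2 fold changes of 0.66 ± 0.0693 and 0.57 ± 0.0813 (standard error), with adjusted p = 0.0102 and 0.0242 from limma, and Usp2 was the other. Scnn1b was at 23.8, 27.3 and 26.8 FPKM in the 3 Tsc1-KO mice, against 16.2, 16.6 and 16.4 FPKM in the 3 WT mice, so that WT replicate 3, high for Sgk1, was not high for this subunit. Scnn1g and Scnn1a, a further subunit, were by contrast highest among WT libraries in replicate 3. They were at 15.1, 14.2 and 16.4 FPKM and at 33.2, 35.8 and 39.4 FPKM in the 3 WT mice. Scnn1b passed in 10 and Scnn1g in 8 of 13 alternatives. Of the 12 log2 fold changes 11 were positive. The exception was Fxyd4, with all Tsc1-KO values below all WT values (log2 fold change -0.35, adjusted p = 0.0732 from limma).

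Of 14 paralogs of the members, 13 were tested and 0 were called by limma, with 5 before adjustment (p under 0.05) and 0 by limma-voom, and the median log2 fold change was 0.16. Tsc22d1, a paralog of Tsc22d3, had the smallest p, at 36.9, 39.0 and 44.2 FPKM in the 3 Tsc1-KO mice, against 31.0, 28.6 and 32.4 FPKM in the 3 WT mice (log2 fold change 0.38, adjusted p = 0.0771 from limma). It passed in 1 of 13 alternatives, without WT replicate 3 (adjusted p = 0.0408, in a range of 0.0408 to 0.232).

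The 5 genes whose levels over the 6 libraries were most like the mean course of the targets were Irf9, Grk2, Igfbp2, Ddx23 and Bcl2l14, with a Pearson's r of 0.993 to 0.998 over 6 libraries. Irf9, a subunit of the interferon-stimulated complex ISGF3, was at 9.50, 9.01 and 9.90 FPKM in the 3 Tsc1-KO mice, against 5.66, 6.33 and 7.40 FPKM in the 3 WT mice. Igfbp2, a binding protein of insulin-like growth factors, was at 4.03, 3.18 and 3.90 FPKM in the 3 Tsc1-KO mice, against 1.26, 1.54 and 2.42 FPKM in the 3 WT mice. All 5 were chosen for this likeness, so it is a description.

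Markers of other tissue were looked at because the adrenal gland, the source of corticosterone, lies beside the kidney, and fat surrounds it. Of 6 adrenal cortex markers only Star was listed, at 0.846 to 1.02 FPKM in Tsc1-KO libraries and 0.938 to 1.21 FPKM in WT libraries, while Cyp11a1, Cyp11b1, Cyp11b2, Cyp21a1 and Mc2r were not among the genes listed. Of 6 adipocyte markers, 5 were listed, 4 were tested and 0 were called in limma, with 1 before adjustment (p under 0.05) and 0 by limma-voom. Their summed level was 97.2 to 166 FPKM in Tsc1-KO libraries and 53.1 to 103 FPKM in WT libraries, but nearly all of it was Fabp4, which capillary endothelium also expresses. Fabp4 was at 159, 100.2 and 96.6 FPKM in the 3 Tsc1-KO mice, against 52.7, 62.3 and 95.4 FPKM in the 3 WT mice, with adjusted p = 0.188 from limma and 0.0442 without WT replicate 3. Adipoq, which defines adipocytes, was at 2.998, 2.65 and 0.263 FPKM in the 3 Tsc1-KO mice, against 0.0726, 1.27 and 3.72 FPKM in the 3 WT mice, so that the groups overlapped. Among WT libraries it was highest in replicate 3 and lowest in replicate 1, as were 6 of the 8 targets in each, while among Tsc1-KO libraries it was lowest in replicate 6, where 6 of the 8 targets were highest. All 4 tested markers had their highest WT level in replicate 3.

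Markers of the kidney itself were present, with the 8 proximal tubule markers summing to 2781 to 3299 FPKM in Tsc1-KO libraries and 3144 to 3464 FPKM in WT libraries. All 6 intercalated cell markers were called higher in Tsc1-KO mice, and their summed level was 203 to 272 FPKM in Tsc1-KO libraries and 87.0 to 109 FPKM in WT libraries. Of 6 principal cell markers, 2 were called higher, Gata3 and Scnn1g, and 0 lower. Scnn1g was also counted above among the sodium transport genes. The summed level of the 6, mostly Aqp2, was 412 to 439 FPKM in Tsc1-KO libraries and 352 to 458 FPKM in WT libraries. Aqp3 and Fxyd4 had log2 fold changes of -0.16 and -0.35, and all Tsc1-KO values of Fxyd4 were below all WT values. Of 5 fibroblast markers, 2 were called higher and 0 lower, with 51.7 to 84.4 FPKM in Tsc1-KO libraries and 33.1 to 43.5 FPKM in WT libraries. Of 7 macrophage and leukocyte markers, 6 were listed, 5 were tested and 0 were called, with 0 before adjustment (p under 0.05) and 0 by limma-voom. Of 5 endothelial markers 0 were called, with 0 before adjustment and 0 by limma-voom, and their summed level was 151 to 185 FPKM in Tsc1-KO libraries and 95.2 to 196 FPKM in WT libraries. The part of these cell types in the levels of the 10 genes was not tested.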

How the data were processed

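Total kidney RNA of 3 Tsc1-KO and 3 WT mice was measured by RNA-seq. Per the submitters' processing notes, reads were processed with HISAT2 2.0.4 and HTSeq 0.9.1; the genome build is not given in the sources used here. The values that the authors deposited are FPKM per gene and library. The authors also deposited base means, a signal that averages normalised counts within a group or over all libraries. Their columns of fold change, log2 fold change and p-values hold the authors' own comparison and were not used. No other columns of values were left out.

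FPKM were taken as log2(FPKM + 0.1), and fold changes are on this scale, which understates those of low genes. Genes averaging 0.5 FPKM or more were fitted with limma 3.58.1 in R 4.3.3 (genotype as the only term, empirical Bayes, variance trend, 2-sided, Benjamini-Hochberg adjustment over 13230 genes, called at an adjusted p under 0.05). The fit was tested on simulated data. Whole reads were recovered from FPKM and base means: of 90068 values no larger than 10000 reads, 100% were whole to within 0.02. They were used in limma-voom, an alternative. The p-values measure only the spread between these samples, and with 3 against 3 an exact permutation test cannot go below p = 0.1. The motif search and figures used numpy 2.4.6, pandas 2.3.3, matplotlib 3.10.9 and Python 3.11.15.

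The members and the gene lists, from textbook knowledge, were chosen with earlier results of these data known. Named are all 10 members, up to 4 called genes with the smallest p in each of 9 lists (with 0 called, the gene with the smallest p), the 5 genes most like the mean course of the targets, and cell type markers. Hsd11b2, Nr3c2, Per2, Per3, Arntl, Dbp, Hsp90aa1, Scnn1a and the genes beside Usp2 were named after their values were seen. The alternatives were 2 pseudocounts, 2 filters, median-of-ratios scaling, no variance trend, limma-voom and leaving out each library. For the pairs of targets, leaving out WT replicate 3 was chosen after seeing the data.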

Additional observations from a re-analysis of the deposited data

How the results depend on the processing

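All 8 targets stayed above 0 and Nr3c1 and Hsd11b1 below 0 in each of 13 alternatives of the processing, and the median log2 fold change of the targets ran from 0.92 to 1.17. Median-of-ratios scaling left it at 0.96. The median r of the pairs of targets ran from 0.60 to 0.71 over 4 alternatives, and the palindrome was in 1 member with or without a mismatch. Counts of calls depended on single libraries. The 3 members called higher were 3 in each of the other 7 alternatives and 0 to 8 over the libraries left out. Over all genes, the 248 higher and 31 lower calls became 101 and 3 when Tsc1-KO replicate 4 was left out, 24 and 0 when replicate 5 was, and 0 and 0 when replicate 6 was (limma, with 1777 genes at p under 0.05 before adjustment). They became 26 and 6 when WT replicate 1 was left out, 170 and 14 when replicate 2 was, and 709 and 400 when replicate 3 was. The 31 lower calls were 18 without the variance trend. The 1 call among other glucocorticoid-induced genes was 0 with median-of-ratios scaling, without the variance trend and in limma-voom, and 0 to 9 over the libraries left out: 9 with WT replicate 3 left out, 1 with WT replicate 2 left out and 0 with any other left out. The 8 higher and 0 lower calls in the other lists together became 5 with median-of-ratios scaling, 4 without the variance trend and 5 in limma-voom, and ran from 0 to 28 higher and 0 to 2 lower over the libraries left out, with the 28 and the 2 without WT replicate 3. No paired analysis was possible because the replicate numbers of the groups, 1 to 3 and 4 to 6, are not shared.

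Each member had at least 323 reads in every library, apart from Zbtb16 with 44 in its lowest. With 3 mice in a genotype, the spread between them is itself known only roughly.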

Other observations

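Some targets answer to other signals as well, and lists of those signals were looked at for the same kidneys. Dusp1 is also an immediate early gene. Of 14 immediate early genes, 12 were tested, 2 were called higher and 0 lower, and the median log2 fold change was 0.49. Jun, a subunit of AP-1, was at 16.9, 19.5 and 14.4 FPKM in the 3 Tsc1-KO mice, against 7.65, 9.50 and 9.16 FPKM in the 3 WT mice (adjusted p = 0.0240 from limma). Btg2, an antiproliferative gene, was at 9.33, 10.6 and 12.2 FPKM in the Tsc1-KO libraries, against 5.27, 6.79 and 5.97 FPKM in the WT libraries (adjusted p = 0.0325 from limma). Jun passed in 9 and Btg2 in 8 of 13 alternatives.

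Ddit4 is also induced by ATF4 and by hypoxia. Of 12 ATF4 targets, 11 were tested, 2 were called higher and 0 lower, and the median log2 fold change was 0.41. Aldh18a1, of proline synthesis, was at 1.84 ± 0.327 FPKM in Tsc1-KO mice and 0.811 ± 0.0900 FPKM in WT mice, and the transcription factor gene Atf5 at 9.68 ± 0.487 FPKM in Tsc1-KO mice and 6.02 ± 0.912 FPKM in WT mice (SD, n = 3 each). They passed in 8 and 5 of 13 alternatives. Of 12 hypoxia targets 0 were called by limma, with 4 before adjustment (p under 0.05) and 0 by limma-voom. Ankrd37 had the smallest p in that list (log2 fold change 1.14, adjusted p = 0.0606 from limma), and the median log2 fold change was 0.09.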
